A study of Sus scrofa with 63 samples.

Results

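Fetuses sired by Meishan (MS) boars were compared at day 90 of gestation between MS and Large White (LW) sows. The comparison holds 14 of the 63 fetuses of the series, chosen by their labels alone: 6 purebred MS fetuses (MS sire and MS sow, called MS below) and 8 crossbred fetuses (MS sire and LW sow, called MSLW). All were males taken by caesarean delivery, and RNA of a middle segment of the jejunum was measured on one-colour Agilent porcine arrays, 1 fetus per array. The sows had been inseminated with mixed semen of both breeds, so litters could hold fetuses of both sire breeds. The series also holds LWMS fetuses (LW sire, MS sow) and purebred LW fetuses, and the same 4 genotypes at day 110. Which fetuses were litter mates is not part of the labels used here. The study collected several fetuses per litter, so fetuses of a group can share a sow. Each fetus was taken as independent here. The p-values thus measure the spread between fetuses and can be too small for a difference between sows.

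The question was what the breed of the sow changes in the jejunum when the breed of the sire is held constant. The breeds differ in neonatal survival, which is higher in MS than in LW piglets. In late gestation the pig jejunum builds villi, stores digestive enzymes and transporters at the brush border and prepares its mucosal defence for the first contact with milk and microbes. A male fetus takes its X chromosome and its mitochondrial DNA from the sow, and these differed in breed between the 2 groups, whereas the Y chromosome came from an MS boar in both. The autosomes were MS and MS in one group and MS and LW in the other. Uterine environment, autosomal genotype, X chromosome and mitochondrial DNA of the sow therefore cannot be told apart in this comparison.

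Levels below are log2 spot intensities minus the 75th percentile of the array, and differences are MS minus MSLW on that log2 scale, with standard errors (SE) and Benjamini-Hochberg adjusted p-values of limma over all 40515 probes tested. On average 70.1% ± 4.08 of probes (SD, n = 6) were well above background in MS and 65.4% ± 5.34 (SD, n = 8) in MSLW, a difference of 4.71 points that was within the spread (two-sided exact permutation test, p = 0.0952). Arrays of 3 fetuses stood apart from their groups, MS fetuses 524 and 532 and MSLW fetus 450. Their median correlation with their own group was 0.958, 0.939 and 0.963, against 0.972 to 0.981 for the other 11, so results are given with and without them. Of the tissue markers, 6 of 7 for enterocytes and 6 of 6 for smooth muscle were measurable. Of neighbouring organs, 0 of 5 pancreas markers and 5 of 5 liver markers were measurable. Of 5 adrenal cortex markers 2 were measurable, and STAR, CYP21A2 and NR5A1 were not.

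At day 90, 1000 probes differed between MS and MSLW fetuses at an adjusted p under 0.05, which is 2.47% of those tested. Most were lower in MS fetuses: 814 probes (2.01%) were lower and 186 (0.459%) were higher. At an unadjusted p under 0.05 there were 6754 probes. The median difference was -1.01 for the lower and 0.82 for the higher probes, against 0.03 over all probes tested. An absolute difference of at least 2 was reached by 104 lower and 15 higher probes. The levels of the 2 groups did not overlap for 331 of the 1000 probes and for 1.19% of all probes tested. Counted by the brightest probe of each gene, 187 genes were lower (1.88%) and 51 were higher (0.513%), together 2.39% of 9940 genes. Only 492 of the 1000 probes carried a gene symbol.

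Fewer probes were called without the arrays that stood apart, with a greater loss in share on the higher side. Without fetus 827 alone, which did not stand apart, 546 were called, 74 of them higher. Without the 3 arrays 225 probes were lower and 9 were higher, of which 217 were among the 1000. Of the 186 higher probes 8 remained called, and of the 814 lower probes 209 did. All 1000 kept their sign, with a median of 0.63 for the higher and -0.81 for the lower probes. By the brightest probe, 58 genes were lower and 2 were higher without these arrays.

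The genes with the largest falls that could be measured in both groups came from several functions. MTFP1, a protein of the inner mitochondrial membrane that acts in mitochondrial fission, fell most. Its level (probe A_72_P184536) was -5.10, -4.55 and -2.36 (lowest, median, highest) in MS and -1.18, -0.85 and -0.53 in MSLW fetuses. Fetus 532 was the highest MS fetus, yet the groups did not overlap. MTFP1 fell by 3.34 on the log2 scale (SE 0.26, adjusted p = 3.61e-14), and its second probe (O4058) carries the same bases. The probe that gave this difference is shown, since its fall led those of the genes measured in both groups.
MTFP1 A_72_P184536: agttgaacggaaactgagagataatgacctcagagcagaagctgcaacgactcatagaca

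Immune genes stood among these falls. IFNW1, an interferon omega gene, was at -4.59, -4.11 and -3.81 (lowest, median, highest) in MS and at -1.97, -1.13 and -0.72 in MSLW fetuses, with no overlap, and fell by 2.87 (SE 0.30, adjusted p = 4.31e-10). TRAF6, the ubiquitin ligase that carries signals from Toll-like and interleukin-1 receptors, was at -1.12, -1.03 and -0.94 in MS and at 0.59, 0.89 and 1.42 in MSLW fetuses. By this probe (A_72_P223847) the 6 MS fetuses were almost level and lay apart from all 8 MSLW fetuses, and TRAF6 fell by 2.01 (SE 0.32, adjusted p = 1.73e-05). Its other probe (O8523) differed by -0.46, with overlapping groups, and was not called (adjusted p = 0.364). CD38, an enzyme of leukocytes that splits NAD, fell by 2.13 (SE 0.38, adjusted p = 0.000212). It was at -5.19, -3.64 and -2.02 in MS and at -2.55, -1.52 and -0.43 in MSLW. Here the groups overlapped, and 3 MS fetuses lay between -5.19 and -4.75 while the others reached MSLW levels. These 3 genes and MTFP1 were also called without the arrays that stood apart.

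Muscle and cytoskeletal genes and genes of other roles made up the rest. MYBPC3, cardiac myosin-binding protein C, was 2.44 lower and MYH3, the embryonic myosin heavy chain, was 2.11 lower in MS. Their adjusted p-values were 0.0102 and 0.00053, and 0.171 and 0.188 without the arrays that stood apart, where the differences were -2.21 and -1.36. TMEM27, collectrin, which partners amino acid transporters at the brush border, fell by 2.11 (adjusted p = 0.0438). MSLW fetuses were split for this gene, 5 of them between -0.38 and 0.01 and 3 between -3.83 and -3.18, beside the MS range of -4.17 to -3.15, and without the 3 arrays its difference was -2.07 and was not called (adjusted p = 0.277). FAM118A was at -2.35 to -1.08 in MS and at 0.16 to 0.89 in MSLW fetuses and fell by 2.29 (adjusted p = 3.99e-10). UNC93A, KIAA1644, ZNF114 and SAMD4A, an RNA-binding repressor of translation, fell by 2.11, 2.07, 2.03 and 2.01, and these 4 and FAM118A were also called without the 3 arrays.

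By the brightest probe, the 12 higher genes, CYP11A1 (described below) among them, were 0.92 to 2.48 higher in MS fetuses. The 12 lower genes fell by 2.01 to 3.34. None of the 12 higher genes was called without the arrays that stood apart, though all kept their sign. DIO1, the deiodinase that makes active triiodothyronine from thyroxine, was at -2.23, -1.25 and -0.13 (lowest, median, highest) in MS and at -6.01, -3.68 and -2.62 in MSLW fetuses. The groups did not overlap, and DIO1 was 5.58-fold higher in MS (2.48, SE 0.70, adjusted p = 0.0391, and 2.40 with adjusted p = 0.252 without the 3 arrays). BCL2L15, a member of the Bcl-2 family, was at 2.44 to 3.59 in MS and at -1.29 to 2.07 in MSLW, 1.83 higher in MS (SE 0.43, adjusted p = 0.00851). ECI2, which isomerises unsaturated fatty acids for their oxidation, was at -0.45 to -0.01 in MS and at -1.94 to -0.74 in MSLW. It was higher in MS in each of the 5 slides that held both groups (1.07, SE 0.22, adjusted p = 0.00212, and 0.92 with adjusted p = 0.0927 without the 3 arrays).

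The other higher genes were GSTM1 (1.49), which conjugates glutathione, SDCBP2 (1.22), GPR65 (1.15), a proton-sensing receptor of immune cells, and ESR1 (1.07), the oestrogen receptor alpha. BCL2A1 (1.05), which restrains apoptosis, ALG14 (1.02), which acts in N-glycosylation, TSPAN33 (0.99), a tetraspanin, and DUSP9 (0.92), a phosphatase of MAP kinases, completed this list. Their adjusted p-values ran from 0.0108 for GSTM1 to 0.044 for BCL2A1, and their groups overlapped except for SDCBP2. Without the arrays that stood apart GPR65, ESR1, BCL2A1 and TSPAN33 differed by 0.62, 0.58, 0.53 and 0.62. GSTM1, SDCBP2, ALG14 and DUSP9 differed by 1.38, 1.004, 0.69 and 0.80 without these arrays. In 8 of the 12 higher genes the lowest MSLW fetus was 450, one of these arrays.

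**Figure D1:**
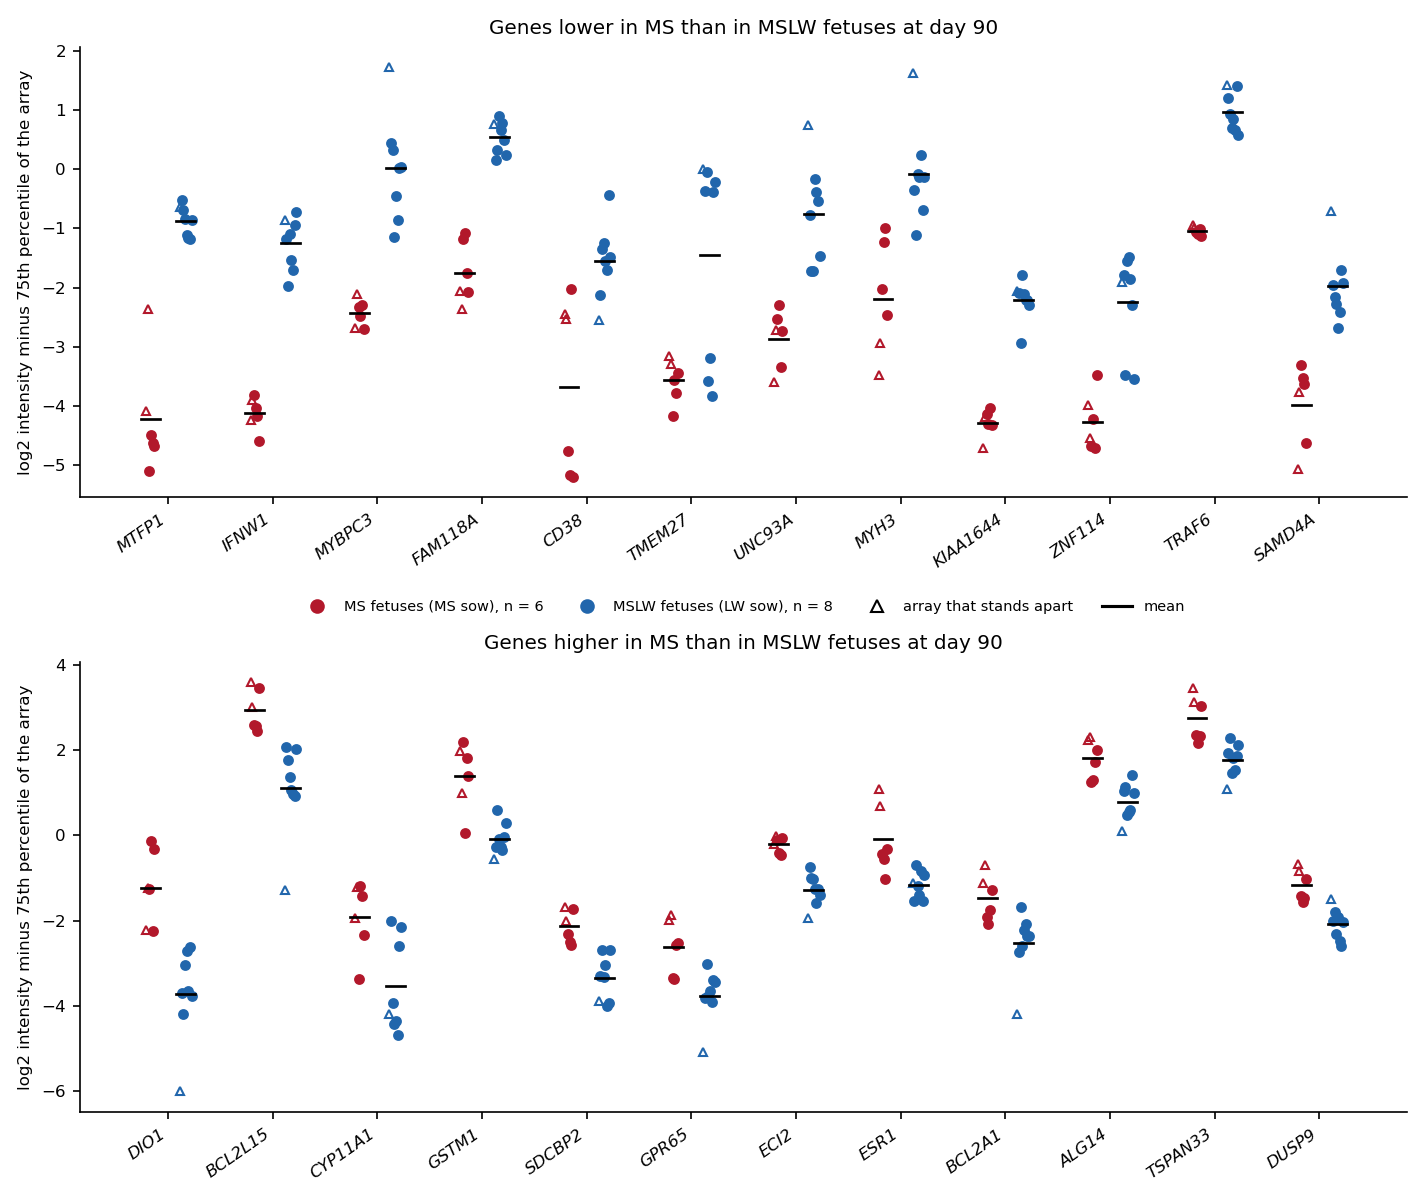
Level of the 12 lower (top) and 12 higher (bottom) named genes in single fetuses at day 90, as log2 intensity minus the 75th percentile of the array. Each point is 1 fetus, red for 6 MS and blue for 8 MSLW fetuses, open triangles are the 3 arrays that stood apart and black bars are group means. MTFP1, IFNW1, FAM118A and TRAF6 separate the groups fully, whereas several higher genes lean on the open triangles.

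Some genes were near background in 1 group and so lie outside the rule for the genes above, and these were chosen after their values were seen. ALPK1, a kinase that senses bacterial sugars, was at -8.19, -6.19 and -1.49 in MS and at -0.66, -0.51 and 0.17 in MSLW fetuses, with only 3 of 6 MS fetuses well above background. Its difference was -5.19 (SE 0.62, adjusted p = 2.59e-08). FGL1, a fibrinogen-like protein, was well above background in 0 of 6 MS and 7 of 8 MSLW fetuses, with means of -7.21 and -3.10. It was at least 5.64-fold lower in MS (adjusted p = 2.04e-05), a bound that sets the MS fetuses at the lowest signal told from background on each array. CYP2C42, a cytochrome P450, was well above background in 4 of 6 MS fetuses. It spread from -8.09 to 0.29 in MS and lay between 0.20 and 2.44 in MSLW (-4.59, adjusted p = 5.45e-05). On the higher side, GREB1, a target of the oestrogen receptor, was well above background in 6 of 6 MS and 2 of 8 MSLW fetuses (2.56, SE 0.50, adjusted p = 0.000737). NLGN3, a neuronal adhesion protein, lay between -3.60 and -2.94 in MS and between -5.86 and -4.28 in MSLW (1.81, SE 0.31, adjusted p = 0.000112). Where only some fetuses of a group were well above background, the size of the difference is uncertain. These 5 were also called without the arrays that stood apart, with adjusted p-values up to 0.0111. Among the 8 lower and 8 higher genes of this kind with the largest differences, 5 and 2 were called then.

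CYP11A1, the enzyme that cuts the side chain of cholesterol to start steroid synthesis, was the gene with the most called probes on the higher side, with all 6 of its probes called. Differences ran from 1.64 to 3.73 and adjusted p-values from 0.000513 to 0.0108. By probe A_72_P381703 the MS fetuses were at -2.74, 0.61 and 0.92 (lowest, median, highest) and the MSLW fetuses at -7.62, -4.70 and -0.18. Thus 5 of 6 MS fetuses were at -0.62 or above, while the MSLW fetuses split into 3 between -0.63 and -0.18 and 5 at -4.66 or below. By this probe 4 of 8 MSLW fetuses were well above background, and 4 to 8 by the 6 probes, so that the size of these differences is uncertain. None of the 6 probes was called without the arrays that stood apart (adjusted p = 0.0627 to 0.326), where the differences were 1.38 to 2.83. The brightest probe over all arrays (A_72_P545357) and the probe described here are shown because both measure CYP11A1 and their differences were 1.64 and 3.68.
CYP11A1 A_72_P545357: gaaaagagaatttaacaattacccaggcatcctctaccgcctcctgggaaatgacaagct
CYP11A1 A_72_P381703: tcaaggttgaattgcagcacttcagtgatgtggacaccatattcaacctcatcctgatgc

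In the steroid list CYP11A1 was the 1 gene called of 12 tested (17 listed), where 2.39% of all genes were called. Of the 12 genes 10 were above 0, and the median difference was 0.24 against 0.07 over all genes. Without the arrays that stood apart it was 0.07 against 0.02. CYP17A1, which makes androgen precursors, differed by 0.65 (adjusted p = 0.71), HSD3B1 by 0.28 (adjusted p = 0.664) and HSD11B2, which inactivates cortisol, by 0.67 (adjusted p = 0.514). With LW sires at day 90, fetuses that share no sample with the 14, the same 6 CYP11A1 probes were higher with MS than with LW sows, all called. The brightest probe differed by 1.53, and A_72_P381703 was well above background in 9 of 9 LWMS and 0 of 9 LW fetuses and thus at least 16.3-fold higher. At day 110 with MS sires none was called, but only the brightest probe, at -0.06, was well above background in most fetuses of both groups.

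SRPX2, a secreted sushi-repeat protein with a role in angiogenesis, is X-linked and was lower in every MS fetus than in any MSLW fetus. By probe A_72_P210412 the MS fetuses were at -1.68, -1.33 and -0.97 (lowest, median, highest) and the MSLW fetuses at 0.16, 0.63 and 0.83. SRPX2 fell by 1.87 (SE 0.21, adjusted p = 7.82e-09), and by 1.85 without the arrays that stood apart (adjusted p = 1.99e-06). With LW sires its difference between sows was -1.92 (adjusted p = 6.26e-11), and at day 110 it was -0.56 (adjusted p = 0.202). The dependence on age was not called (interaction -1.30, adjusted p = 0.0727). The other probe (O1191), shown because it gave a smaller value for the same gene, was at -0.62 (adjusted p = 0.07), with groups that did not overlap, and at 0.58 at day 110 (adjusted p = 0.13).
SRPX2 O1191: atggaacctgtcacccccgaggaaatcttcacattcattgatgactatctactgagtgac

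A list of 84 X-linked genes was used, and X-linked genes outside it were not counted. Among its probes 219 were tested and 6 were called, which is 2.74% and close to the 2.47% of all probes. All 6 were lower in MS, as were 814 of all 1000 called probes, and all 6 were called with LW sires too. Among the 6 were probes of SRPX2, KDM6A, a histone demethylase (-1.35), and ATRX, a chromatin remodeller (-1.05 and -0.67). The KDM6A groups overlapped, and 1 of its 2 other probes had the same sign. Without the arrays that stood apart SRPX2 and the ATRX probe at -0.67 (adjusted p = 0.0223) were called. KDM6A and the other ATRX probe were not (adjusted p = 0.252 and 0.215). Spermine synthase (SMS), another X-linked gene, differed by 0.32 (adjusted p = 0.613) by probe A_72_P090121, and its other probe was well above background in 1 of 6 MS and 0 of 8 MSLW fetuses. Imprinted genes, of which the active copy comes from 1 parent, held no called member, with 6 tested of those read from the sow's copy and 14 of those read from the sire's.

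Of 127 probes for the 13 genes of mitochondrial DNA 24 were called, 18 lower and 6 higher in MS, which is 18.9% where 2.47% of all probes were called. These genes encode subunits of the respiratory chain and of ATP synthase. The called probes were of ND1 (6 of 20), ND2 (6 of 12), CYTB (5 of 21), COX1 (4 of 25), COX2 (1 of 5), COX3 (1 of 14) and ND3 (1 of 3). The brightest probe of none of the 13 genes was called, and the median over the 127 probes was 0.03. Probes of 1 gene thus gave unlike values, with ND2 probes at -2.62 and 0.05 and ND1 probes at -2.24 and 0.79.

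The ND2 probe A_72_P719508 was between 2.70 and 5.31 in MS and between 6.19 and 6.98 in MSLW fetuses, and fell by 2.62 (adjusted p = 6.00e-06). COX1 probe A_72_P762153 was between 3.03 and 5.58 in MS and between 6.39 and 7.41 in MSLW (-2.61, adjusted p = 0.000204). For 14 of the 24 probes the groups did not overlap, against 331 of all 1000 called probes and 1.19% of all probes tested. Without the arrays that stood apart 14 of the 24 were called, against 217 of the 1000. All 24 kept their sign then, as did all 1000. With median centring 13 of the 24 were called, and 15 in a fit of the 14 fetuses alone. With LW sires 22 of the 24 were called in the same direction and all 24 had the same sign. At day 110 with MS sires 19 were called in the same direction.

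The COX2 probes show how near to each other unlike values can lie. A_72_P746371 was between 3.80 and 5.52 in MS and between 6.10 and 7.04 in MSLW fetuses and fell by 1.84 (SE 0.35, adjusted p = 0.000666, and 0.0511 without the 3 arrays). A_72_P751248 shares 48 bases with it and was at 7.48 in MS and 7.46 in MSLW at the median (0.05, adjusted p = 0.9). The 2 probes are shown 5′ to 3′ with the 1 base at which the shared stretch differs in capitals, A33T counted from the 5′ end of the first probe.
COX2 A_72_P746371: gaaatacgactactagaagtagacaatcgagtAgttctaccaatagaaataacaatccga
COX2 A_72_P751248: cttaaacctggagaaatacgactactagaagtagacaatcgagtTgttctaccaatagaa

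**Figure D2:**
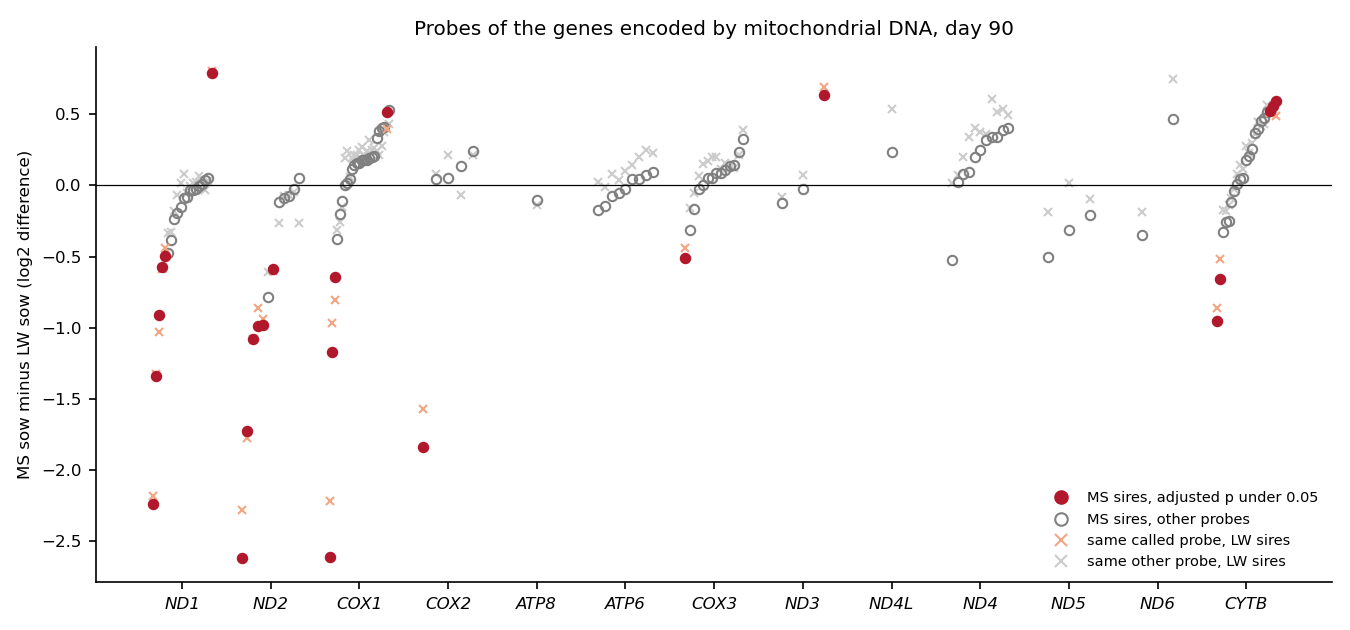
Difference between MS and LW sows at day 90 for each of 127 probes of the genes of mitochondrial DNA, ordered along the x axis by gene and within a gene by size (log2 scale). Circles are fetuses of MS sires, filled where called, and crosses are the same probe in fetuses of LW sires. The called probes of ND1, ND2, COX1 and COX2 reach -2.62, beside probes of the same genes near 0.

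Nuclear genes held such pairs too. With at least 1 probe called, 46 pairs of nuclear and 6 of mitochondrial genes shared at least 40 bases with at most 5 mismatches. Of 37 nuclear pairs without a mismatch 17 were called by both probes, and of 9 with a mismatch 0 were. The 6 mitochondrial pairs all had a mismatch, and 3 were called by both probes. Tyrosyl-tRNA synthetase (YARS) had a probe (A_72_P033731) that spread from -5.55 to 0.80 in MS and lay between 0.08 and 1.20 in MSLW (-2.61, adjusted p = 0.025, and 0.00332 without the 3 arrays). Its neighbour O10640 was level between the groups (0.04, adjusted p = 0.861), and their shared 45 bases differ by 1 substitution, G42A, shown in capitals.
YARS A_72_P033731: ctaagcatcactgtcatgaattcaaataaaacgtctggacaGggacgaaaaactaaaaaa
YARS O10640: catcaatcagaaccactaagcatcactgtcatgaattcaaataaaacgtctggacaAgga

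RANBP1, a regulator of nuclear transport, is shown because its pair holds no mismatch, with the 50 shared bases in capitals. A_72_P096796 was between 1.73 and 2.36 in MS and between 2.54 and 3.16 in MSLW and fell by 0.77 (adjusted p = 0.00389, and 0.0121 without the arrays that stood apart). The other probe differed by 0.01 (adjusted p = 0.988). Of 107 called genes with more than 1 probe, 30 had another probe called in the same direction and 28 had no other probe of the same sign.
RANBP1 A_72_P096796: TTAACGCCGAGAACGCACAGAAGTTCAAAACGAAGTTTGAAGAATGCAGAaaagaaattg
RANBP1 A_72_P559089: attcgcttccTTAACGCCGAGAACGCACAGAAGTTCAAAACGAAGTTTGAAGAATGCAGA

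Lists of intestinal genes were described by the brightest probe of each gene, beside 51 higher and 187 lower of 9940 genes and a median of 0.07 (0.02 without the arrays that stood apart), with 5853 of the 9940 above 0. The genes of absorption and digestion held no called member. Fat absorption and chylomicron assembly had a median of 0.36 with 16 of 18 genes above 0, such as APOC3, an apolipoprotein of triglyceride-rich particles (1.33, adjusted p = 0.401), and FABP6, the ileal bile acid binding protein (2.19, adjusted p = 0.362). Peptide and amino acid transport had a median of 0.38 with 10 of 11 above 0, and brush border enzymes 0.32 with 6 of 11. Lactase (LCT), which digests milk sugar, differed by 0.42 (adjusted p = 0.707) and sucrase-isomaltase (SI) by -0.66 (adjusted p = 0.706). Without the 3 arrays the 3 medians were 0.36, 0.53 and 0.45. At day 110 with MS sires they were -0.48, -0.43 and -0.64.

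Of the genes of fatty acid oxidation, ACOX2, which acts on branched chains and bile acid precursors, was at -1.07 to 0.27 in MS and at 0.19 to 1.15 in MSLW fetuses. It fell by 0.82 (SE 0.17, adjusted p = 0.00169) and by 0.87 without the arrays that stood apart (adjusted p = 0.00755). HADHA, ACADM and CPT1A of mitochondrial oxidation did not pass, with differences of 0.28, 0.29 and -0.05. Of other metabolic genes, IVD of leucine breakdown fell by 0.93 (adjusted p = 0.00759) and the lactate transporter SLC16A1 rose by 0.59 (adjusted p = 0.0133). Without the 3 arrays IVD and SLC16A1 differed by -0.58 and 0.52, and neither was called.

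Genes of mucosal defence had the highest median of the 45 lists, though 1 of 12 tested members was called. Their median was 1.62 with 11 of 12 above 0, and 1.47 without the arrays that stood apart. With normexp background correction and quantile normalization it was 0.83. PLA2G2A, a secreted phospholipase that kills bacteria, was at -5.46, -1.55 and -1.18 in MS and at -6.40, -5.81 and -5.26 in MSLW fetuses. It was well above background in 5 of 6 MS and 0 of 8 MSLW fetuses, and fetus 952 was the MS fetus at MSLW levels. PLA2G2A was at least 6.89-fold higher in MS (adjusted p = 0.0163). The fitted difference, of uncertain size near background, was 3.54, and 3.09 without the 3 arrays, where it was not called (adjusted p = 0.279). Members that did not pass were REG3G, an antibacterial lectin (2.61, adjusted p = 0.148), S100A9 and S100A8, the subunits of calprotectin (2.29 and 1.91, adjusted p = 0.161 and 0.207), and PIGR, which carries IgA across the epithelium (1.82, adjusted p = 0.234). The mean level of the list was -1.79 to -0.61 in MS and -3.74 to -2.19 in MSLW fetuses, without overlap. This mean includes PLA2G2A, which was near background in MSLW fetuses, so the size of the gap is uncertain. Its median was 0.35 with LW sires and 0.53 at day 110.

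The other immune lists described here were shifted less, and their medians were nearer to 0 without the 3 arrays. Fetus 450 was the lowest MSLW fetus in the mean level of each of these 5 lists, and the medians without it alone were not tested. Antigen presentation had a median of 0.62 with 16 of 18 genes above 0, and 0.32 without the 3 arrays. SLA-DMB, which loads peptides on class II molecules, rose by 0.72 (adjusted p = 0.0354), and by 0.44 without them (adjusted p = 0.566). Macrophage genes were at a median of 0.57, and 0.25 without them, with CD163, a scavenger receptor, at 0.04 by its brightest probe and the complement genes C1QA, C1QB and C1QC at 0.73 to 0.81, none called. Interferon-stimulated genes were at 0.35, and 0.15 without them. Their 1 called member went the other way: GBP7, an interferon-induced GTPase, was at -2.05 to -0.87 in MS and at -0.61 to 0.45 in MSLW, and fell by 1.22 by probe A_72_P140526 (adjusted p = 0.00989, and 0.0236 without the 3 arrays), while 0 of its 3 other probes had the same sign. T and B lymphocyte genes and chemokines, at 0.36 each, were at -0.02 and 0.01 without them. In bulk tissue fewer cells of a type and less RNA per cell cannot be told apart.

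Erythroid genes had a median of 0.70 with 9 of 9 above 0, and 0.74 without the 3 arrays, and none was called. Their mean was -0.13 to 1.24 in MS and -1.13 to 0.84 in MSLW fetuses, of which 498 and 485 lay within the MS range. Collagens and matrix (median -0.27, 1 of 17 above 0) and contractile genes of smooth muscle (-0.16, 0 of 12 above 0) lay below 0 without a called member, and were at -0.25 and -0.14 without the 3 arrays. COL1A1, the chain of the main fibrillar collagen, differed by -0.78 (adjusted p = 0.41) and MYH11, the myosin of smooth muscle, by -0.50 (adjusted p = 0.308). The part of cell composition in the results on single genes was not tested. Marker lists had medians of 0.42 for enterocytes, 0.73 for macrophages, -0.10 for smooth muscle and -0.19 for fibroblasts, and none of these markers was called. Without the 3 arrays these medians were 0.54, 0.46, -0.15 and -0.27. Those of liver, adrenal cortex, T and B lymphocyte, erythroid and endothelium markers were 0.72, 0.47, 0.39, 0.32 and -0.17, with none called. Without the 3 arrays they were 0.23, 0.49, 0.33, 0.22 and -0.22. In the remaining lists RRM2, a subunit of ribonucleotide reductase (0.78), and DNAJB1, a chaperone (0.75), were called. Without the 3 arrays RRM2 and DNAJB1 differed by 0.48 and 0.72 and were not called (adjusted p = 0.654 and 0.224).

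**Figure D3:**
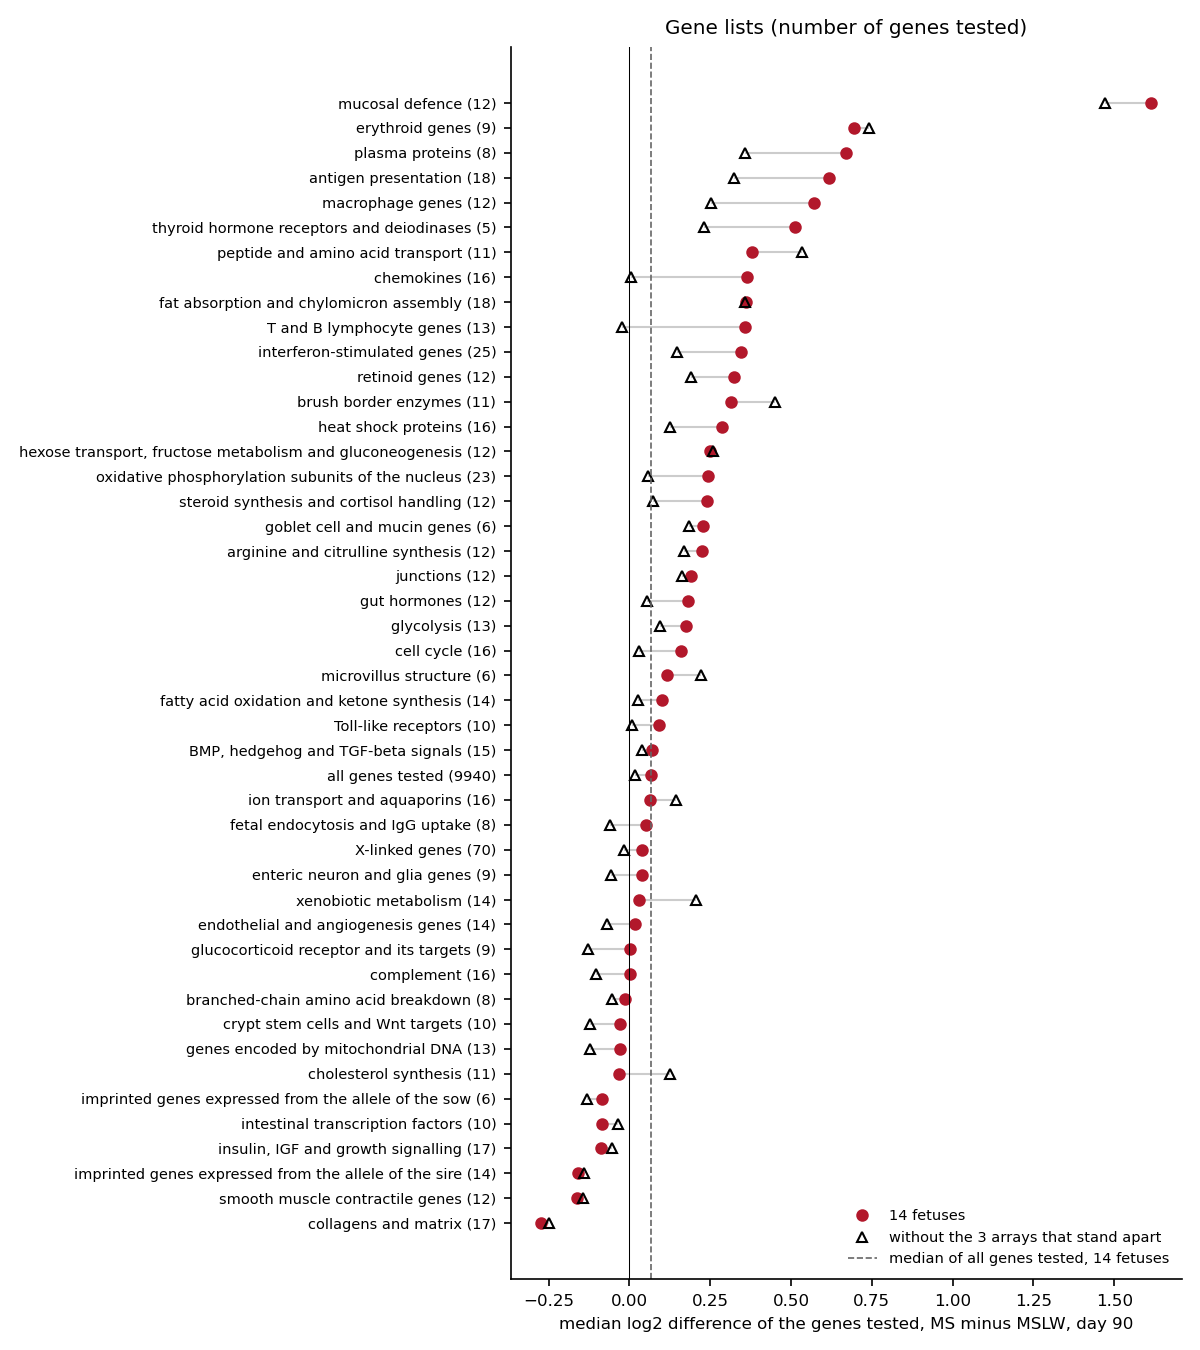
Median log2 difference between MS and MSLW fetuses at day 90 for 45 gene lists and all genes tested, with the number of genes tested in brackets. Red circles are the 14 fetuses, open triangles leave out the 3 arrays that stood apart and the dashed line is the median of all genes. Mucosal defence lies at 1.62 and 1.47, while chemokines and T and B lymphocyte genes move to about 0 without these arrays.

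**Figure D4:**
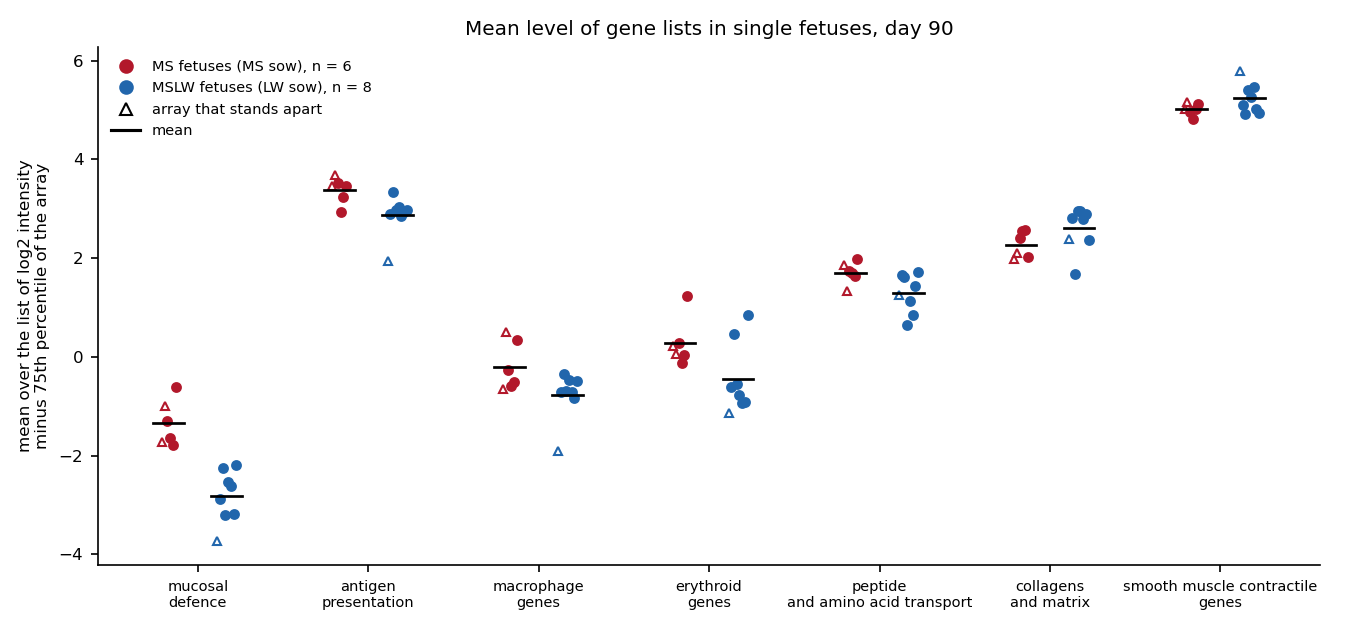
Mean level of 7 gene lists in single fetuses at day 90, as log2 intensity minus the 75th percentile of the array. Points are fetuses, red for 6 MS and blue for 8 MSLW, open triangles are the 3 arrays that stood apart and black bars are group means. The groups are apart for mucosal defence, whose mean includes a gene near background in MSLW fetuses, and overlap in the other 6 lists.

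Sows were also compared with LW sires at day 90 and with MS sires at day 110, which share no sample with the 14 fetuses, though fetuses of both sire breeds can share a litter at day 90. With LW sires 336 probes were called (0.829%), 187 higher (0.462%) and 149 lower (0.368%) with MS sows. Of the 1000 probes 164 were called there in the same direction (16.4% of the 1000 and 48.8% of the 336), 113 lower and 51 higher, and 0 in the opposite direction. At day 110 with MS sires 771 probes were called (1.90%), 326 higher (0.805%) and 445 lower (1.10%) with MS sows. Of them 213 were among the 1000 in the same direction (21.3% and 27.6%), 191 lower and 22 higher, again with 0 opposite. The medians of the 814 lower and the 186 higher probes were -0.44 and 0.47 with LW sires and -0.41 and 0.25 at day 110.

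The difference between sows depended on the breed of the sire for 18 probes (0.0444%), all of them more negative with MS sires, and for 1959 at an unadjusted p under 0.05. Of the 18, 17 were among the 1000. One of them was a probe without a gene symbol (A_72_P417829), well above background in 0 of 6 MS and 8 of 8 MSLW fetuses, with means of -7.73 and -0.11 and thus at least 44.7-fold lower in MS (adjusted p = 7.68e-31). It was at -0.66 in LWMS and 0.46 in LW fetuses. PIP4K2A, a lipid kinase, was at -6.08 to -4.88 in MS and at -1.32 to 0.58 in MSLW fetuses, a difference of -4.92 (SE 0.35, adjusted p = 3.24e-16), against -1.18 with LW sires. The mean of PIP4K2A was -0.98 in LWMS and 0.19 in LW fetuses, so that MS fetuses alone were far below the other 3 genotypes. This probe of PIP4K2A was well above background in 3 of 6 MS fetuses, and 2 of its 4 other probes had the same sign. MTFP1 was likewise low in MS fetuses alone, with means of -4.22 in MS, -0.88 in MSLW, -0.68 in LWMS and 0.16 in LW fetuses (interaction -2.50, adjusted p = 2.26e-05). TMOD3, which caps actin filaments, UROS, an enzyme of haem synthesis, and BCAS2, a splicing factor, had interactions of -2.85, -2.61 and -3.00. The UROS probe was well above background in 0 of 6 MS fetuses (at least 4.45-fold lower than in MSLW), and 0 of its 5 other probes had the same sign. For BCAS2 3 of 6 MS fetuses were well above background and 4 of 10 other probes had the same sign. SALL3, a zinc finger transcription factor, was the exception, since its difference lay in LW sires (2.01, adjusted p = 3.22e-08) and was 0.23 with MS sires (adjusted p = 0.698).

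**Figure D5:**
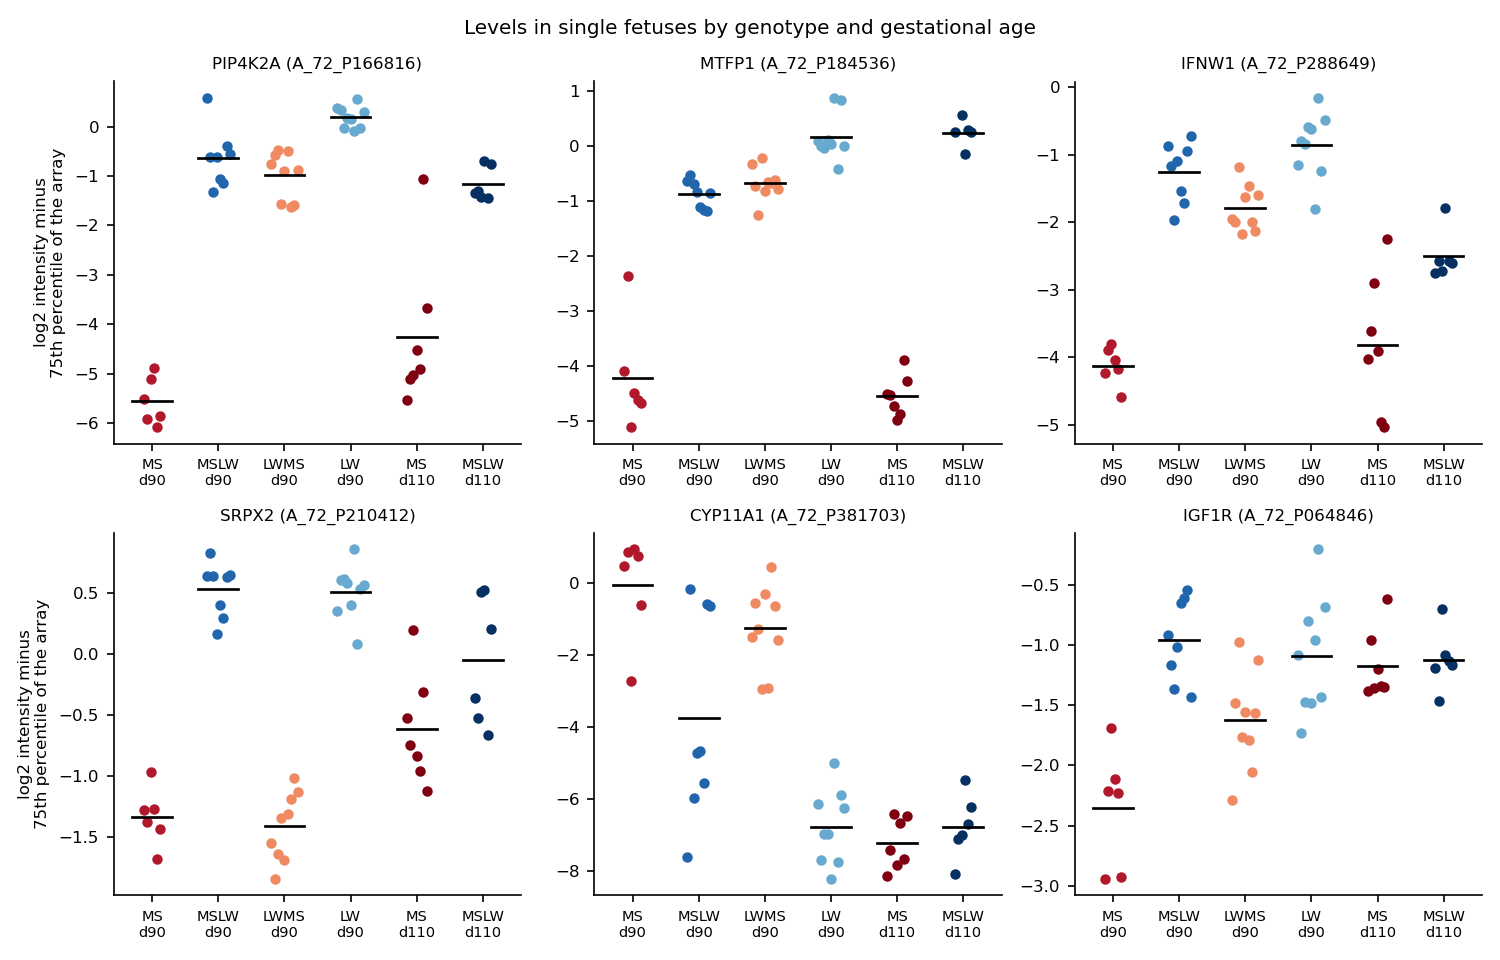
Level of 6 genes in single fetuses of MS or LW sires at day 90 (d90) and of MS sires at day 110 (d110), as log2 intensity minus the 75th percentile of the array. Points are fetuses and black bars are means of 6 groups. PIP4K2A, MTFP1 and IFNW1 are low in MS fetuses alone at day 90, SRPX2 is low in both genotypes from MS sows at day 90, and CYP11A1 is near its lowest levels in LW fetuses and at day 110.

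The difference between sows with MS sires depended on age for 25 probes (0.0617%), 23 more negative (0.0568%) and 2 more positive (0.00494%) at day 90, and for 4306 at an unadjusted p under 0.05. Without the arrays that stood apart 1 probe was called. Of the 25 probes 18 carried a gene symbol, of which 7 were called with the slide as a block and 7 with median centring. IGF1R, the receptor of insulin-like growth factor 1, was at -2.94 to -1.69 in MS and at -1.43 to -0.54 in MSLW fetuses at day 90. By this probe (A_72_P064846) it fell by 1.39 (adjusted p = 4.25e-06). Of the 3 other IGF1R probes 2 had the same sign, and 0 were called in that direction. At day 110 the difference by A_72_P064846 was -0.05 (interaction -1.34, adjusted p = 0.0469). PJA2, a ubiquitin ligase, was 1.83 lower at day 90 (adjusted p = 6.76e-09) and differed by -0.31 at day 110. FTO, an RNA demethylase, was 1.02 lower at day 90 (adjusted p = 1.93e-05) and differed by 0.10 at day 110. GLRX, a glutaredoxin, and a probe of BAG6 ran the other way, at 0.51 and 0.75 at day 90 (not called, adjusted p = 0.278 and 0.208) and at -1.21 and -1.69 at day 110. IFNW1 and MTFP1 were lower in MS at day 110 as well, by 1.31 and 4.77.

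The study lists 28 probes for the breed of the sow in interaction with age, a list chosen on these samples and so not independent evidence. Of them 26 were tested and 11 were called at day 90 with MS sires, where 2.47% of all probes were called, 4 higher, all of CYP11A1, and 7 lower. The lower ones were SRPX2, FARP1 (-1.12), BCKDHB of branched-chain amino acid breakdown (-0.96), MAP2K1, a kinase of the MAP kinase cascade (-0.88), ZNF705A (-0.83), RNPC3 (-0.80) and ELP3 (-0.52). BCKDHB and MAP2K1 each had 5 other tested probes, and 0 of these had the same sign. Without the arrays that stood apart 4 were called. MAP2K1, BCKDHB, CD163 and BAG6 were also among the 25 probes whose difference depended on age.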

How the data were processed

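The 63 arrays, one-colour Agilent porcine arrays on 8 slides, each hold jejunum RNA of 1 male fetus, and the labels gave the groups. Scanner files of Agilent Feature Extraction 10.10.1.1 were deposited with linear spot intensity and spot flags. The authors also deposited log2 values of 39446 probes as 1 matrix, used as an alternative. For these 39446 probes the study names a quantity normalization step, of which the method was not given in the sources used here. The column medians of the matrix were 8.61, and it correlated with the scanner values at 0.989 to 0.997 across probes. From the background-corrected intensity, log2 was taken and the 75th percentile of each array subtracted. Control spots were dropped, and spots marked as outliers were set to missing. A probe was tested where 75% or more of the arrays of any group had it well above background (40515 of 60305 probes, 2775 with a missing value). No spot was saturated. Background subtraction makes the size of differences near the floor uncertain, and the filter sets how many tests the adjustment covers. The number of arrays limits the precision.

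A model with 1 mean for each of the 8 groups was fitted in limma 3.58.1 (R 4.3.3), and differences called at a Benjamini-Hochberg adjusted p under 0.05 (two-sided). The script was tested on simulated data. The sow, a random effect in the study, is not in the labels used here. Gene names come from accessions and names in the array files matched to RefSeq tables, and from the study's annotation (25940 of 60305 probes), and no genome was used. The probe bases are those of the array files. Alternatives covered the scaling, the background, the filter, the slide as a block, array weights and each fetus left out.

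The genes named are the 12 higher and 12 lower with the largest difference among called genes measured above background in 75% or more of the fetuses of both groups, called members of 45 gene lists, the study's 28 probes, CYP11A1, SRPX2, SMS and mitochondrial probes. Some genes that met this rule are not reported here. Members and lists were chosen with earlier results of these data known.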

Additional observations from a re-analysis of the deposited data

Results flagged for a closer look

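Single fetuses lay far from the rest of their group in 9 of 80 groups of levels examined, by a gap test that chance passes in about 1 in 20 groups. MSLW fetus 450 accounted for 5 of them, and was the lowest of its group for DIO1 (-6.01, the next at -4.20), BCL2L15 (-1.29, the next at 0.92), GPR65 (-5.08, the next at -3.92), BCL2A1 (-4.19, the next at -2.74) and SLA-DMB (-0.77, the next at 0.77). MS fetus 532 was the highest MS fetus for MTFP1 (-2.36, the next at -4.08). Both arrays are among the 3 that stood apart. The others were MSLW fetus 498 for KIAA1644 (-2.94, the next at -2.29), MS fetus 827 for ACOX2 (-1.07, the next at -0.13) and MS fetus 952 for PLA2G2A (-5.46, the next at -2.73).

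The difference between sows was not the same under both sire breeds for 18 probes at day 90, by limma's interaction over all probes tested. Values are the difference with MS sires minus that with LW sires (log2). Of those with a gene symbol, PIP4K2A was at -3.74 (adjusted p = 7.66e-07), MTFP1 at -2.50 and -2.57 by 2 probes of the same bases, NUBPL, an assembly factor of respiratory complex I, at -3.75 (adjusted p = 0.00143), TMOD3 at -2.85 and UROS at -2.61. The NUBPL and UROS probes were not well above background in any of 6 MS fetuses, so that the size of these values is uncertain. ALPK1 was at -4.34 and -3.23, MMRN2, an endothelial matrix protein, at -3.84 (adjusted p = 0.00785) and BCAS2 at -3.00. Of 6 MS fetuses 1 was well above background for MMRN2 (where the spot of fetus 532 was an outlier and left out of the fit), and 3 and 0 were for these 2 ALPK1 probes. IFNW1 was at -1.94, SALL3 at -1.79 and FAM118A at -1.52 and -1.45, with adjusted p-values of 0.0234, 0.0234, 0.0259 and 0.0473.

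With MS sires the difference between sows was not the same at day 90 and day 110 for 25 probes, and values are day 90 minus day 110. Receptors, signalling and secretory genes among them were MAP2K1 (-1.34, adjusted p = 0.00872), CD163 (-2.27, probe O14513, with the same sign at day 90 in 2 of 5 other probes), IGF1R (-1.34), LGI1, a secreted neuronal protein (-1.11 and -1.13), and CPE, a carboxypeptidase that matures peptide hormones (-1.0 by each of 2 called probes among 8 tested). Genes of RNA and chromatin were LUC7L2 of the splicing machinery (-1.06), ZMYND8, a chromatin reader (-0.79), FTO (-1.12) and BNC2, a zinc finger protein (-1.79). ESYT2, which tethers membranes, was at -0.79, PJA2 at -1.51, NUBPL at -3.22, BCKDHB at -1.65 and TAMM41, of cardiolipin synthesis, at -1.23. GLRX (1.72) and BAG6 (2.44) were the exceptions with a positive value. At day 90 the sign was shared by 0 of 5 other probes for MAP2K1 and for BCKDHB and by 0 of 1 for LUC7L2. Of the 25 probes 16 were also called at day 90. CD163, LUC7L2, ZMYND8, ESYT2, GLRX, BAG6 and both CPE probes were not (adjusted p = 0.162 to 0.345), and all of these were called at day 110. CD163 was at -0.56 at day 90 (adjusted p = 0.334) and at 1.71 at day 110 (adjusted p = 0.000275).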

How the results depend on the processing

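No analysis paired by fetus number was possible because fetus numbers are not shared between groups. Both groups lay on 5 of the slides, and with the slide as a block 1049 probes were called. In place of the 1000 probes called, the count was 554 with median centring, 2105 with array weights, 597 with the 14 fetuses alone, 234 without the arrays that stood apart (chosen after seeing the data) and 425 at an adjusted p under 0.01 with a difference of at least 0.5. Leaving out 1 fetus gave 546 to 1430, and 637, 563, 648 and 546 without fetuses 450, 524, 532 and 827. The 10 other settings gave 709 to 1257. Of 61 called probes of named genes, 0 turned sign under the settings run, though probes that were not called did (RANBP1 A_72_P559089 was at 0.01, and at -0.24 without the 3 arrays). Of the 61, 23 were called without the arrays that stood apart, 36 in the 14 fetuses alone, 45 with median centring and 36 whichever single fetus was left out, and the mean difference within slides had the same sign for 61.

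In place of the 18 probes that depended on the sire, counts were 6 with normexp and quantile normalization, 6 in the authors' matrix, 2 for probes above background on all 14 arrays and 107 with array weights. Leaving out 1 fetus (an alternative added after seeing the data, as for the next count) gave 13 to 21. In place of the 25 that depended on age, counts were 9 without a filter, 13 with slide as a block, 41 without LW fetuses 484 and 469 and 1 without the arrays that stood apart. Leaving out 1 fetus gave 7 to 45, with 14, 13, 45, 7, 9, 10 and 16 without fetuses 524, 532, 952, 827, 899, 902 and 900. The difference in the share of probes above background was 3.41 to 6.05 points with 1 fetus left out, and 6.05 without fetus 524 (two-sided exact permutation test, p = 0.0218). The cause of these changes was not tested. Low signal makes the size of fitted differences uncertain for genes near background in 1 group. Medians of lists near 0, such as crypt and mitochondrial genes, turned sign with the scaling or with the slide as a block. That of mitochondrial genes was -0.03, and 0.02 with the slide as a block. The median of mucosal defence ranged from 0.83 to 1.71.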
